A study of Mus musculus with 68 samples.

Results

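The genes described here encode the vacuolar ATPase (V-ATPase) and a set of lysosomal enzymes and membrane proteins. They were taken from the deposited table by symbol, as every gene whose symbol starts with Atp6v or Atp6ap, plus 25 named lysosomal genes. This gave 52 of the 36172 genes of the table, 27 of the V-ATPase (2 of them pseudogenes of Atp6v0c) and 25 of the lysosome. The rule itself uses symbols and no measured value. RNA was drawn into the recording pipette from single dopamine (DA) neurons of the ventral tegmental area (VTA) after patch-clamp recording (Patch-seq), from 12-month-old mice of both sexes. The 33 3xTg cells came from mice homozygous for human transgenes, among them APP_Swe and Tau_P301L, and the 35 WT cells from a line without transgenes kept in parallel on the same C57BL/6 and 129 hybrid background. The genotypes are thus separately bred lines and not littermates. Which mouse a cell came from is not given in the labels, so that each genotype counts as 1 sample, no test between genotypes was made, and intervals cover counting error only.

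The V-ATPase is a rotary proton pump. Its V1 sector in the cytosol splits ATP and turns a rotor, and the V0 sector in the membrane carries protons into the lumen of lysosomes, endosomes and synaptic vesicles, where the gradient also drives the loading of dopamine by the vesicular monoamine transporter. Lysosomal hydrolases work at the acid pH that the pump makes, and loss of several of them causes storage disease in neurons. Many genes of both groups carry near their start the CLEAR element, which transcription factor EB (TFEB) and its relatives bind.

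The core of that element was searched for in the RefSeq promoters of build GRCm38.p6, from 250 bases before to 50 bases after a gene's start, which were at hand for 40 of the members. The letters TCACGTGA, which read the same on both strands, occurred in 8 of the 40 (20%) and in 304 of 27025 genes in all (1.12%). The members were not chosen for these letters. The letters were searched for because many genes of both groups are known to carry the element, so that the higher share is no independent finding. The matches are shown in capitals with 11 flanking bases on either side, on the strand of the gene.
Atp6v0d1, chr8:105566050-105566079, minus strand: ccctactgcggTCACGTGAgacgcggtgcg
Atp6v1a, chr16:44139373-44139402, minus strand: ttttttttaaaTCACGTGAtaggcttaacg
Atp6v0e, chr17:26676387-26676416, plus strand: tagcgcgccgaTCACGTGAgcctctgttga
Cln3, chr7:126583340-126583369, minus strand: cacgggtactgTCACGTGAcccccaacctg
Mcoln1, chr8:3500462-3500491, plus strand: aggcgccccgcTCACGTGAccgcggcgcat
Ctsa, first match, chr2:164833749-164833778, plus strand: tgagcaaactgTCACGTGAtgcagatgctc
Ctsa, second match, chr2:164833766-164833795, plus strand: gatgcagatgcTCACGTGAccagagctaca
Ctsd, chr7:142387908-142387937, minus strand: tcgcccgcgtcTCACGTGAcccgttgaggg
Gla, first match, chrX:134601215-134601244, minus strand: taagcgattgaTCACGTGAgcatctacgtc
Gla, second match, chrX:134601182-134601211, minus strand: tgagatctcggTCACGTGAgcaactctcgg
The longer form, with a G before and a C after these letters, was found in Cln3 alone (2.5% of the 40, against 0.370% of all genes). The shorter form CACGTG, which all of these contain, was found in 14 of the 40 (35%, against 8.09% of all genes), among them Atp6v0b, Lamp1, Ctsf, Ctsl, Gaa and Glb1. In Atp6v0d1, Atp6v0e and Ctsa a match began within 13 bases of the start used by the RefSeq promoters. The deposited annotation starts Ctsa at 164832872 and Cln3, on the minus strand, at 126584280. By that annotation the matches of Ctsa and Cln3 lie inside the gene. The matches are letters in a window and not measured binding.

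The total per cell ranged from 492505 to 1678624 counts. The DA neuron markers Th and Slc6a3 were counted in all 68 cells, and 3 DA neuron markers summed to 17229 CPM (counts per 1000000 counts of the genotype or cell) in 3xTg and 13402 CPM in WT. Aldh1l1 of astrocytes and Cldn5 and Pecam1 of endothelium were at 0, but other listed markers were not. Slc1a3 of astrocytes was counted in 5 3xTg and 8 WT cells, and Mbp of oligodendrocytes in 32 and 35. Gad2 of GABA neurons was counted in all 68 cells, and 3 listed GABA neuron markers summed to 28.8 CPM in 3xTg and 44.2 CPM in WT. According to the study's methods, cells positive for markers of microglia, astrocytes and parvalbumin neurons had been left out. Counts of microglia genes were present all the same, and 16 of 33 3xTg and 18 of 35 WT cells held at least 10 counts of C1qa, C1qb, C1qc, Aif1, Csf1r, P2ry12 or Tmem119. Cx3cr1, the last of the 8 listed genes, was left out of this split. It was counted in 29 3xTg and 31 WT cells, and at 10 or more counts in 19 and 15. Cells outside the split are thus not free of such counts, and only 1 cell of each genotype had no count of any of the 8. Summed over 8 listed microglia genes, the level was 168 CPM in 3xTg and 517 CPM in WT, with single cells between 0 and 5741 CPM in 3xTg and between 0 and 3854 CPM in WT. Of these genes C1qc (798 against 210 counts) and Cx3cr1 (522 against 402) had more counts in 3xTg, and the others more in WT. Astrocyte markers summed to 14 and 164 CPM, and oligodendrocyte markers to 94.1 and 292 CPM. The numbers in the cell labels form runs of 1 genotype, WT 1 to 22 (17 cells), 3xTg 24 to 55 (21 cells), WT 57 to 74 (15 cells), 3xTg 76 to 92 (12 cells) and WT 94 to 96 (3 cells). For all 68 cells the label number and the sample number in the file header correspond as places in a grid of 8 rows and 12 columns. Values are therefore also given for the first pair of runs (3xTg 24 to 55 against WT 1 to 22) and for the second pair (3xTg 76 to 92 against WT 57 to 74).

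V-ATPase transcripts were abundant in these DA neurons and covered the whole pump. Together the 27 genes took 1.19% of all counts in 3xTg and 1.07% in WT. At least 1 gene for every subunit of V1 (A to H) and V0 (a, b, c, d and e) was counted in 55 or more of the 68 cells. The sum over the 27 genes was 6127 CPM in the lowest, 11750 CPM in the median and 16543 CPM in the highest 3xTg cell, and 4046, 9649 and 16086 CPM in WT. The ranges of the genotypes overlapped over most of their length.

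Per kb of transcript, Atp6v0c, the proteolipid of the rotor ring in the membrane, stood first, with 1658 CPM per kb in 3xTg and 1565 in WT. Atp6v1g1, a subunit of the peripheral stalk, followed with 767 and 775 CPM per kb, and Atp6v0b, the other ring subunit, with 701 and 588. The catalytic subunit gene Atp6v1a had 187 and 140 CPM per kb, and Atp6v1b2, its partner in the V1 hexamer, 484 and 474. Lowest among the subunits counted widely was Atp6v0a1, which forms the proton path against the ring, with 88.1 and 63.5 CPM per kb. Among the widely counted subunits the levels per kb spanned from 88.1 to 1658 in 3xTg and from 63.5 to 1565 in WT. The accessory genes Atp6ap2, the prorenin receptor, and Atp6ap1 had 424 and 351, and 308 and 288 CPM per kb. The plot of levels by genotype shows that these levels differed far more between genes than between genotypes.

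**Figure D1:**
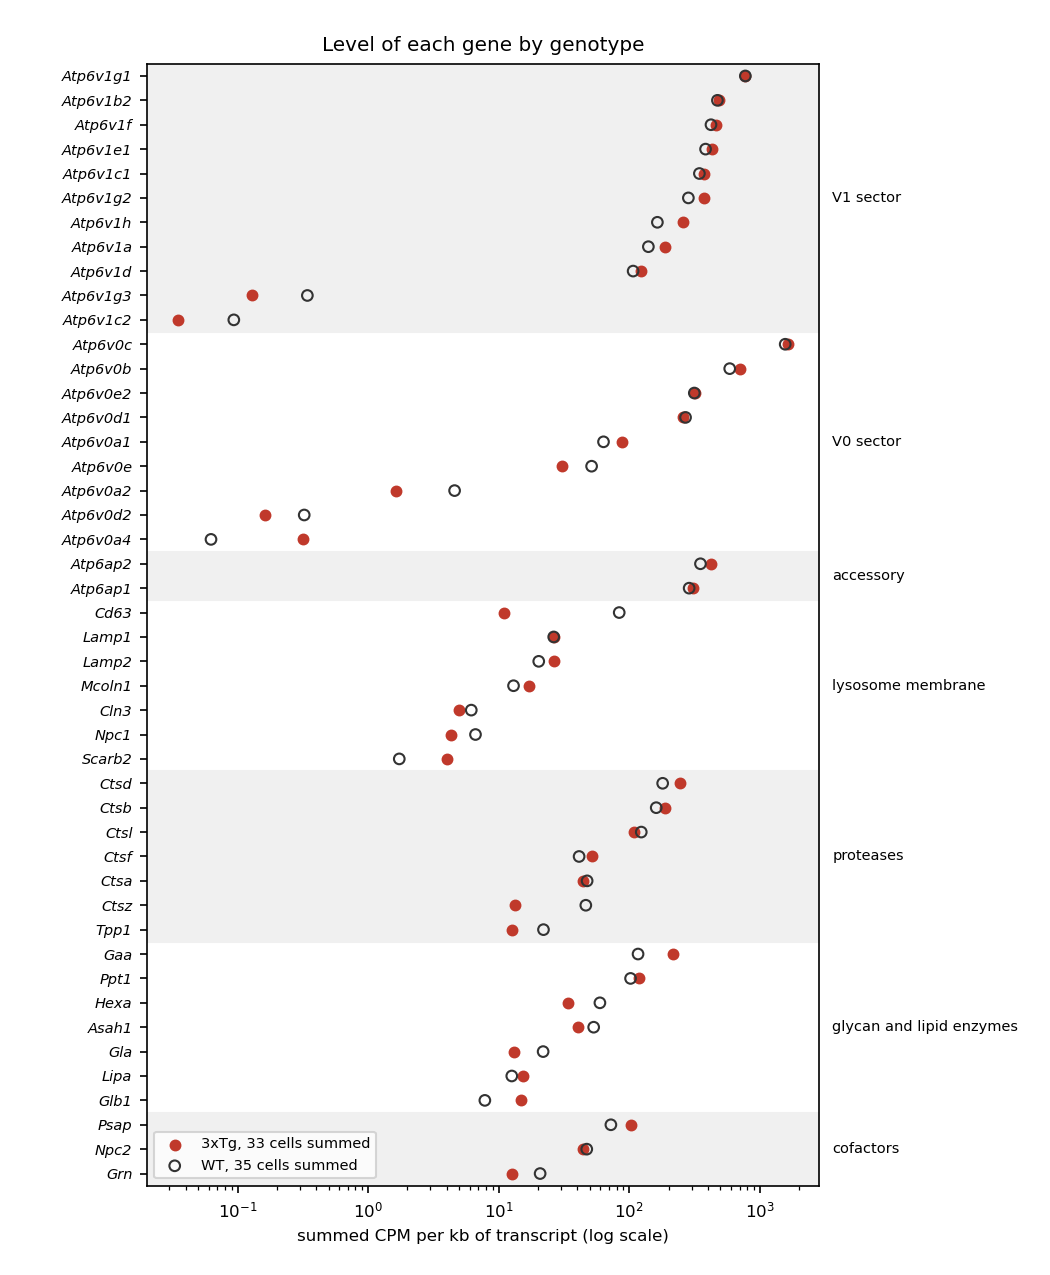
Summed CPM per kb of transcript on a log axis for each gene with more than 3 counts in a genotype, filled for 3xTg (33 cells summed) and open for WT (35 cells summed), grouped by role; values of 0 are not drawn. Most V-ATPase subunits lie above 100 CPM per kb, while Atp6v0a2, Atp6v0d2, Atp6v0a4, Atp6v1g3 and Atp6v1c2 lie below 10.

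Where a subunit has several genes, 1 gene supplied the great majority of it, save for subunit G. Shares were taken per kb among the members that encode a subunit, with exact binomial intervals at 95%. For subunit a, whose isoforms direct the pump to different membranes, Atp6v0a1 made up 97.8% (97.6 to 98.1) in 3xTg and 93.2% (92.7 to 93.6) in WT. The rest was mostly Atp6v0a2, the isoform known from Golgi and endosomes, at 1.82% and 6.74%. Atp6v0a1 was counted in 30 of 33 3xTg and 27 of 35 WT cells, at 0, 353 and 850 CPM (lowest, median and highest cell) and at 0, 165 and 989 CPM. Its summed level was 0.47 higher in 3xTg on the log2 scale (95% interval 0.43 to 0.51), under the limit of 1.5-fold used below, but past it by the mean over cells, also given below. By pair of runs, as defined above, it was 0.70 and 0.13, the first of which is past that limit, and it was −0.053 without the cells holding microglia markers and 0.60 without WT replicate 57. Atp6v0a2 had 321 counts in 12 3xTg cells and 836 in 10 WT cells, a median of 0 in both, and highest cells of 95.1 and 301 CPM. A single cell, WT replicate 16, held 30% of the WT counts of Atp6v0a2. The third isoform, Atp6v0a4 of kidney and epididymis, had 38 and 7 counts. Tcirg1, which encodes a3 and is not matched by the symbol rule, had 98 counts in 2 3xTg cells and 526 in 4 WT cells. With Tcirg1 included, the share of Atp6v0a1 in the counts of subunit a was 96.6% in 3xTg and 86.4% in WT, and that of Tcirg1 0.730% and 5.24%.

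For subunit e, a small membrane subunit, Atp6v0e2 made up 91.3% (90.8 to 91.8) in 3xTg and 86% (85.3 to 86.6) in WT. Atp6v0e2 ranged over 0, 556 and 1004 CPM in 3xTg and 0, 510 and 1427 CPM in WT. Atp6v0e was counted in 19 and 16 cells, at 0, 17.6 and 134 CPM and at 0, 0 and 1016 CPM. One cell, WT replicate 96, held 34.7% of the WT counts of Atp6v0e, and without it the WT share of Atp6v0e2 was 90.4%.

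Subunit G was the exception, with both genes abundant. Atp6v1g1, expressed in all tissues, gave 67.4% (67 to 67.7) in 3xTg and 73.2% (72.8 to 73.6) in WT, and Atp6v1g2, the brain isoform, 32.6% and 26.8%. Within single cells the share of Atp6v1g1 had a median of 65.6% in 3xTg (0.546% to 91.5%) and of 74.4% in WT (22% to 100%). Atp6v1g1 was counted in every cell, at 2.89, 745 and 2102 CPM in 3xTg and 18.4, 741 and 1878 CPM in WT. Atp6v1g2 was counted in all 33 3xTg and in 32 WT cells, at 206, 573 and 855 CPM and at 0, 349 and 934 CPM. The brain isoform was thus never below 206 CPM in a 3xTg cell, while 3 WT cells had none, and its summed level was 0.39 higher in 3xTg (0.36 to 0.42) with 0.40 in the first and 0.56 in the second pair of runs. The third gene, Atp6v1g3, known from kidney, had 9 and 22 counts.

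In the other families the second gene was at or near 0. Atp6v1b2 had 50230 and 45523 counts, at 11.6, 1397 and 2149 CPM in 3xTg and 180, 1115 and 3248 CPM in WT, while Atp6v1b1, the kidney and inner ear isoform, rounded to 0 counts. Atp6v1e1 had 20783 and 17151 counts, at 18.8, 539 and 1129 CPM and at 0, 466 and 1299 CPM, while its testis paralogue Atp6v1e2 had none, where 3 counts would be 0.0817 CPM in 3xTg and 0.0882 CPM in WT. Atp6v1c1 had 28233 and 24284 counts, at 0, 673 and 4081 CPM and at 0, 703 and 2145 CPM, against 2 and 5 counts of Atp6v1c2. One cell, 3xTg replicate 24, held 15.9% of the 3xTg counts of Atp6v1c1, which lay 0.11 above WT with it and 0.10 below without it. Atp6v0d1 had 15535 and 14963 counts, at 0, 457 and 745 CPM and at 0, 385 and 1327 CPM, against 15 and 28 of Atp6v0d2, the osteoclast and macrophage isoform. Both Atp6v0c pseudogenes and Atp6ap1l were at 0 in all cells, and reads shared between Atp6v0c and its pseudogenes could not be told apart here.

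Between genotypes, V-ATPase genes lay slightly higher in 3xTg, by an amount that was absent from the first pair of runs. A gene was taken as expressed if 80% or more of the cells of either genotype had a normalized count of 1 or higher, which 16 of the 27 reached, 15 of them in both genotypes and Atp6v0a1 through 3xTg alone. Of all 3988 expressed genes 2748 passed in both genotypes, 1076 through 3xTg alone and 164 through WT alone. Of the 16, 1 was past 1.5-fold in summed CPM and higher in 3xTg, where 9.88% of all 3988 expressed genes were, and 0 were past it and lower, where 13% were. The median log2 ratio of the 16 was 0.14, against −0.03 over all expressed genes, and 14 of 16 lay above 0. By the mean over cells (of values log2(normalized count + 1), taken relative to the median gene), in which cells without a count weigh more, 3 of the 16 were past the limit and higher, namely Atp6v1h with 1.49, Atp6v0a1 with 1.46 and Atp6v1g2 with 0.83, and 0 were lower, where 25.9% and 23.9% of all expressed genes were. In the first pair of runs the median of the summed ratios was 0.01 with 9 of 16 above 0, against 0.12 over all expressed genes. In the second pair it was 0.35 with 16 of 16 above 0, against −0.11. The total over the 27 genes was 11350 CPM in WT 1 to 22 and 11189 CPM in 3xTg 24 to 55, then 10136 CPM in WT 57 to 74 and 13016 CPM in 3xTg 76 to 92. The last of these runs was the highest, with cells from 10002 to 16543 CPM and a median of 13393, while the medians of the others in this order were 10242, 11015 and 8993 CPM and their highest cells had 16086, 15060 and 15273 CPM, so that the runs overlapped. The cells of 3xTg 76 to 92 also had the most genes detected (a median of 9428.5, against 5367 in WT 1 to 22, 7768 in 3xTg 24 to 55 and 8559 in WT 57 to 74) and the highest median total (1278483 counts, against 977795, 1060912 and 989535), and the part of these in the difference was not tested. In the 34 cells with fewer than 10 counts of the 7 microglia markers (17 of each genotype), the median of the 16 genes was −0.03 with 6 above 0, and the total was 11397 CPM in 3xTg and 11936 CPM in WT. This split was chosen after seeing the data.

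**Figure D2:**
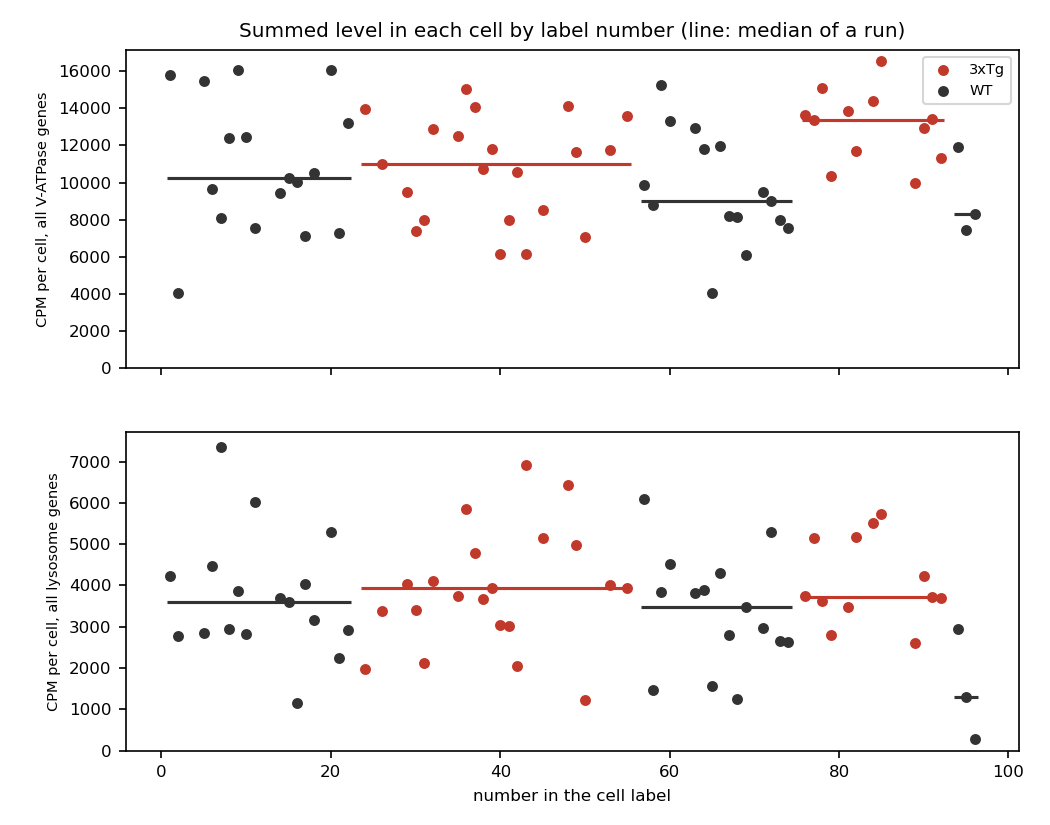
CPM summed over the V-ATPase genes (top) and the lysosomal genes (bottom) in each cell against the number in its label, red for 3xTg and black for WT, with a line at the median of each run. The V-ATPase median is highest in 3xTg 76 to 92 (13393 CPM), and the lysosomal median lowest in WT 94 to 96 (1303 CPM).

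Atp6v1h, on chromosome 1 from 5083173 to 5162549 (mm10), was the gene past the limit in summed CPM. It encodes subunit H, which is needed for ATP hydrolysis to be coupled to pumping and which blocks hydrolysis in V1 sectors that have come off the membrane. All 33 3xTg cells had counts, at 138, 480 and 1165 CPM (lowest, median and highest), and 31 of 35 WT cells, at 0, 278 and 1192 CPM. The ranges of the genotypes overlapped, and the highest cell of each was alike. The sums were 19428 counts (exact Poisson interval 19156 to 19703) and 11453 (11244 to 11665), or 529 against 337 CPM, a log2 ratio of 0.65 (0.62 to 0.69). It was 0.49, under the limit, in the first and 0.78 in the second pair of runs, 0.63 without the cells holding microglia markers, and between 0.60 and 0.76 with any 1 cell left out. After it came Atp6v0a1 with 0.47, Atp6v1a with 0.42 and Atp6v1g2 with 0.39. Atp6v0d1 (−0.06) and Atp6v1g1 (−0.01) were the 2 expressed genes below 0.

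Of V-ATPase genes that were not expressed by the rule above, 2 had a mean of at least 10 counts over all cells. Of the 18 genes with such a mean, 1 was past 1.5-fold and higher (17.1% of all 9382 such genes were) and 2 were lower (20.5% were), namely Atp6v0a2 with −1.49 (−1.68 to −1.30) and Atp6v0e with −0.76 (−0.88 to −0.64). They were counted in 22 and 35 of the 68 cells. The ratio of Atp6v0e was −0.16 without WT replicate 96, 0.029 and −0.37 in the pairs of runs and −0.55 without the cells holding microglia markers, so that it was not past the limit in any of these. That of Atp6v0a2 was −1.02 without WT replicate 16, −2.32 in the first and −0.34 in the second pair of runs, where it was within the limit, and −3.00 without the cells holding microglia markers. On few counts, Atp6v1g3, Atp6v0d2 and Atp6v1c2 were past the limit and lower (31, 43 and 7 counts in all), and Atp6v0a4 was past it and higher, with 2.33 on 45 counts and 0.15 without 3xTg replicate 92. Atp6v0d2 (−1.01) was within the limit without WT replicate 94 (−0.34) and in the second pair of runs (−0.044). Atp6v1g3 (−1.40) was within it in the first pair (−0.56), and the interval of Atp6v1c2 (−1.43) ran from −4.82 to 1.18.

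V-ATPase transcripts varied together from cell to cell. Spearman's rho was calculated on log2(normalized count + 1) over the 68 cells, as a description without a test, since the cells of a genotype share mice, library preparation and size factors calculated from the same table. All 120 pairs of the 16 expressed genes had rho above 0, from 0.069 to 0.763, with a median of 0.545. The median over all pairs of the 3988 expressed genes was 0.054, and −0.011 over pairs of expressed genes with a count in every cell. For the 4 V-ATPase genes with a count in every cell (Atp6v1a, Atp6v1b2, Atp6v1g1 and Atp6v0b) the median was 0.623. Within genotypes the median of the 120 pairs was 0.601 in 3xTg and 0.479 in WT. The pairs most alike were Atp6v1g1 with Atp6v1b2 (0.763), Atp6v0d1 with Atp6v0c (0.759) and Atp6v0e2 with Atp6v0c (0.726), 1 of them within V1 and 2 within V0. Atp6v0a1 was the subunit least like the others, with rho from 0.069 to 0.427. The summed level of the genes was nearly unrelated to the number of genes detected in a cell (rho = 0.126), whereas the number of V-ATPase genes detected followed it (rho = 0.752).

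Lysosomal genes followed the pump to a lesser degree. Across the 160 pairs of 1 V-ATPase and 1 expressed lysosomal gene the median rho was 0.363, and among the 45 pairs of lysosomal genes 0.227. Ctsb had the highest median rho with the 16 V-ATPase genes, 0.495, then Ctsd with 0.457 and Psap with 0.443. Gla went the other way, with rho below 0 for all 16 and a median of −0.165, and Npc1 had 0.015.

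**Figure D3:**
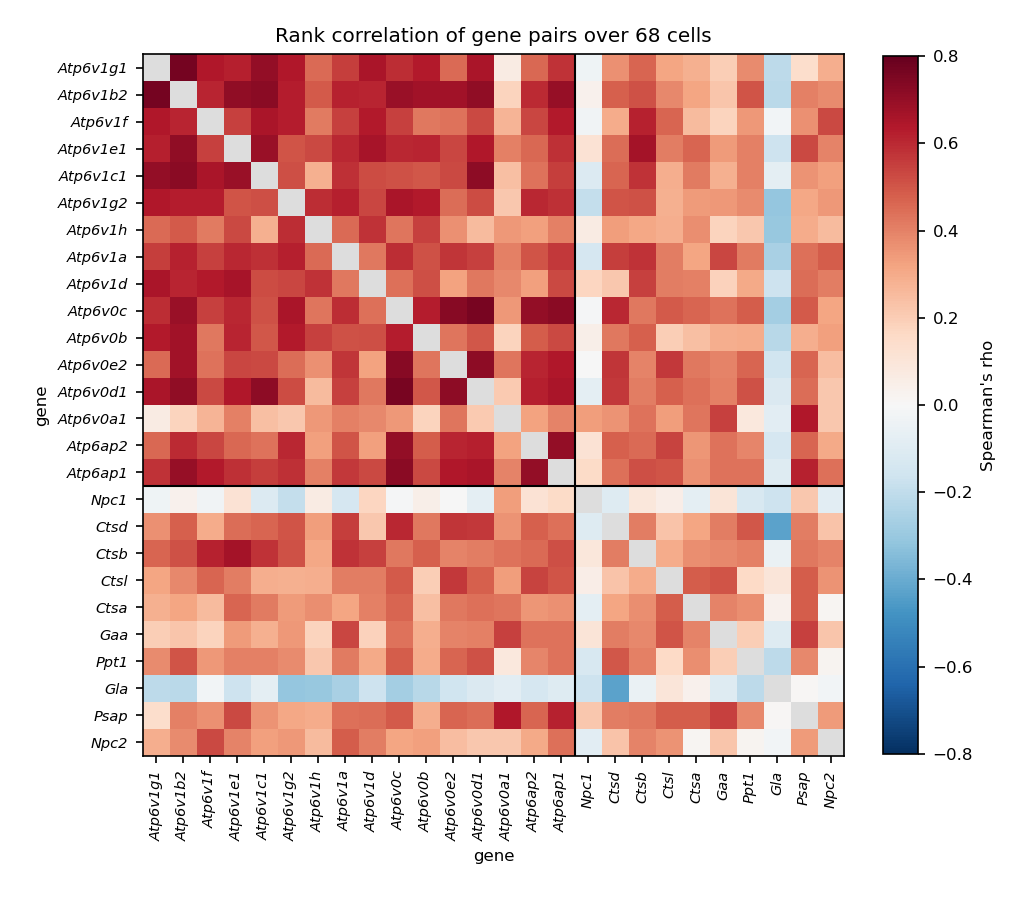
Spearman's rho over 68 cells for each pair of the 26 expressed genes, in colour from −0.8 (blue) to 0.8 (red), with V-ATPase genes before the black line and lysosomal genes after it. The V-ATPase block is red throughout, while the rows of Gla and Npc1 are pale or blue.

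The lysosomal genes were fewer in counts and more scattered over cells. The 25 genes summed to 4043 CPM over all 3xTg and 3555 CPM over all WT cells, at 1234, 3757 and 6928 CPM (lowest, median and highest cell) and at 277, 3156 and 7361 CPM. None was counted in every cell, 10 were counted in 55 or more cells and 12 in 23 to 54. The number counted per cell ran from 7 to 23 in 3xTg and from 9 to 21 in WT, and followed the number of all genes detected (rho = 0.838). Per kb, Ctsd, the aspartic protease that starts the breakdown of many proteins, was at 246 and 180 CPM, Gaa at 218 and 117, Ctsb, a cysteine protease, at 188 and 161, and Ppt1, which removes palmitate from proteins, at 118 and 102. Of the membrane proteins, Lamp1 was at 26.7 and 26.4, Lamp2 at 26.4 and 20.3, and Cd63 at 10.9 and 83.8 CPM per kb. Among the genes given here, the enzymes Ctsd, Gaa, Ctsb and Ppt1 thus lay above these membrane proteins per kb, as did Ctsl at 108 and 124. Other enzymes such as Gla, Glb1 and Tpp1 lay below Lamp1 per kb.

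Of the 25, 10 were expressed, 8 in both genotypes and Ctsl and Npc1 through 3xTg alone, as were 1076 of all 3988 expressed genes. Among the 10, 1 was past 1.5-fold and higher in 3xTg (Gaa) and 2 were lower (Gla and Npc1), where 9.88% and 13% of all expressed genes were. The median log2 ratio was 0.06, with 5 of 10 above 0. It was 0.03 in the first and 0.31 in the second pair of runs, and −0.28 without the cells holding microglia markers, where Gaa was no longer past the limit and Gla and Npc1 were (12.6% of all expressed genes were higher and 13.1% lower there). Over the 24 genes with a mean of at least 10 counts, 3 were higher and 7 lower, where 17.1% and 20.5% of all such genes were, and the median was −0.04.

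Gaa, on chromosome 11 from 119267967 to 119285698, encodes the acid alpha-glucosidase that degrades glycogen in lysosomes and is deficient in Pompe disease. All 33 3xTg cells had counts, at 0.911, 636 and 2367 CPM, and 33 of 35 WT cells, at 0, 308 and 1830 CPM. Both genotypes covered nearly the whole range. The sums were 29100 counts (28767 to 29436) and 14440 (14205 to 14677), a log2 ratio of 0.90 (0.87 to 0.93). By run, the level was 315 CPM in WT 1 to 22, 792 in 3xTg 24 to 55, 586 in WT 57 to 74 and 794 in 3xTg 76 to 92. The 3xTg runs were thus alike and the WT runs were not, so that the ratio was 1.33 in the first and 0.44 in the second pair. It was 0.20 (0.16 to 0.24) without the cells holding microglia markers. By the mean over cells, 3 of the 10 expressed genes were past the limit and higher, namely Gaa with 1.53, Psap with 0.84 and Ctsd with 0.63, and Gla was lower with −1.05, where 25.9% and 23.9% of all expressed genes were.

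The other abundant lysosomal genes lay within the limit in summed CPM. Ctsb was counted in 32 and 35 cells, at 0, 933 and 1289 CPM and at 1.72, 593 and 3103 CPM, with a log2 ratio of 0.23 (0.20 to 0.25). Ctsd, at 0, 459 and 4198 CPM and at 0, 339 and 1292 CPM, had 0.45 (0.42 to 0.48), and without 3xTg replicate 43, which held 15.1% of its 3xTg counts, 0.24. Ppt1, at 0, 282 and 577 CPM and at 0, 198 and 1123 CPM, had 0.20 (0.16 to 0.24). Psap, the precursor of the saposins that help glycolipid hydrolases, was at 0, 227 and 888 CPM and at 0, 70.5 and 886 CPM, with 0.52 (0.48 to 0.57). The ratio of Psap was past the limit in the second pair of runs (0.67) and without WT replicate 20 (0.75), and below 0 without the cells holding microglia markers (−0.25, −0.31 to −0.19). That of Ctsb was −0.055 in the first pair, and 0.39 without WT replicate 7, which held 13.7% of its WT counts. For each of the 4 the ranges of the genotypes overlapped, with the highest cell in WT for Ctsb and Ppt1 and in 3xTg for Ctsd.

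Gla encodes alpha-galactosidase A, the enzyme deficient in Fabry disease, and lies on chromosome X from 134588169 to 134601005. It was counted in 32 of 33 3xTg and in all 35 WT cells, at 0, 19.9 and 192 CPM and at 1.68, 37.1 and 300 CPM. The sums were 1536 counts (1460 to 1615) and 2364 (2270 to 2461), a log2 ratio of −0.73 (−0.83 to −0.64). It was lower in 3xTg in both pairs of runs (−0.84 and −0.58) and without the cells holding microglia markers (−1.47). It carries 2 of the TCACGTGA matches printed above. The 8 members with a match had a median log2 ratio of −0.08, and the 26 without it that had a promoter and a mean of at least 10 counts one of 0.18. Over all genes with such a mean the median was −0.02. Of the 8, 0 were past the limit and higher and 2 lower, and of the 26, 3 and 5. Of all such genes 17.1% were higher and 20.5% lower.

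Npc1, which exports cholesterol from the lysosome, lay past the limit and lower in 3xTg, but not in the first pair of runs. It was counted in 28 cells of each genotype, at 0, 17.2 and 83.7 CPM in 3xTg and 0, 16.9 and 194 CPM in WT, so that the medians were alike. The log2 ratio of the sums was −0.62 (−0.75 to −0.49), but 0.37 in the first and −1.29 in the second pair of runs, and −0.47 without WT replicate 74. Its partner Npc2, a soluble sterol carrier, had −0.08.

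Scarb2 and Glb1 were higher in 3xTg but were counted in fewer than 30 cells. Scarb2, the receptor that carries glucocerebrosidase to the lysosome, had 691 counts (640 to 744) in 16 3xTg cells and 277 (245 to 312) in 7 WT cells, with medians of 0 and highest cells of 116 and 60.3 CPM. Its log2 ratio was 1.21 (1.01 to 1.42), with 1.91 and 0.83 in the pairs of runs. Without the cells holding microglia markers it was 0.48 (0.18 to 0.78), within the limit. Glb1, the lysosomal beta-galactosidase, had 1300 counts in 17 3xTg cells (highest 313 CPM, median 2.86) and 639 in 10 WT cells (highest 299 CPM, median 0), a log2 ratio of 0.91 (0.78 to 1.05), with 1.73 and 0.49 in the pairs. WT replicate 69 held 38.5% of the WT counts of Glb1, and without it the ratio was 1.58. Glb1 shares its locus on the same strand with Tmppe, so that reads of the genes may have been mixed.

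Cd63, Ctsz, Hexa and Grn were lower in 3xTg, and for Cd63 and Ctsz the counts lay in cells that also held microglia markers. Cd63, a tetraspanin of late endosomes and lysosomes, had 427 counts (387 to 469) in 8 3xTg cells and 3031 (2924 to 3141) in 11 WT cells, with medians of 0, highest cells of 168 and 1008 CPM, and a log2 ratio of −2.94 (−3.09 to −2.79). Of its counts 95.6% came from the 34 cells with at least 10 counts of a microglia marker, which held 48.3% of the counts of all genes. Ctsz, cathepsin Z, a carboxypeptidase, had 710 counts (659 to 764) in 10 and 2280 (2187 to 2376) in 10 cells, with medians of 0, highest cells of 114 and 960 CPM, and a log2 ratio of −1.79 (−1.92 to −1.67). The cells with microglia markers held 88.5% of them, and without those cells the ratio of Ctsz was 2.99 (2.49 to 3.54), on 309 counts in 2 3xTg cells and 36 in 1 WT cell. WT replicate 72 held 47.8% of the WT counts of Ctsz, and without this cell the ratio was −0.90. WT replicate 7 held 38% of those of Cd63, and without it the ratio was −2.30. Without the cells holding microglia markers the ratio of Cd63 was −1.91 (−2.51 to −1.35), still past the limit, on 34 counts in 1 3xTg cell and 119 in 2 WT cells.

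Hexa and Grn followed the markers less with both genotypes pooled, but in 3xTg both were counted mostly in cells holding microglia markers. In 3xTg Hexa was counted in 15 of 16 cells with markers and 6 of 17 without (96.9 against 41.3 CPM). Grn was counted there in 11 and 3 cells (48.7 against 11.9 CPM). In WT Hexa was counted in 10 of 18 and 13 of 17 cells (124 against 115 CPM), and Grn in 7 and 9 (42.4 against 54.4 CPM). Hexa, the alpha subunit of beta-hexosaminidase, was counted in 21 and 23 cells, at 0, 46.9 and 419 CPM and at 0, 69.7 and 682 CPM. Its log2 ratio was −0.80 (−0.88 to −0.73), but −0.54 without WT replicate 7 and −1.47 (−1.60 to −1.35) without the cells holding microglia markers, which held 57.2% of its counts. Grn, progranulin, was counted in 14 and 16 cells, with medians of 0 and highest cells of 134 and 284 CPM. Its log2 ratio was −0.71 (−0.82 to −0.60), but −0.45 without WT replicate 72 and −2.19 without the cells holding microglia markers, which held 56.9% of its counts. The part that microglial RNA had in these 4 differences was not tested. With Scarb2 these were the 5 of 24 lysosomal genes with a mean of at least 10 counts that lay past 1.5-fold in the same direction in both pairs of runs, as did 0 of 18 V-ATPase genes and 14.9% of all such genes.

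**Figure D4:**
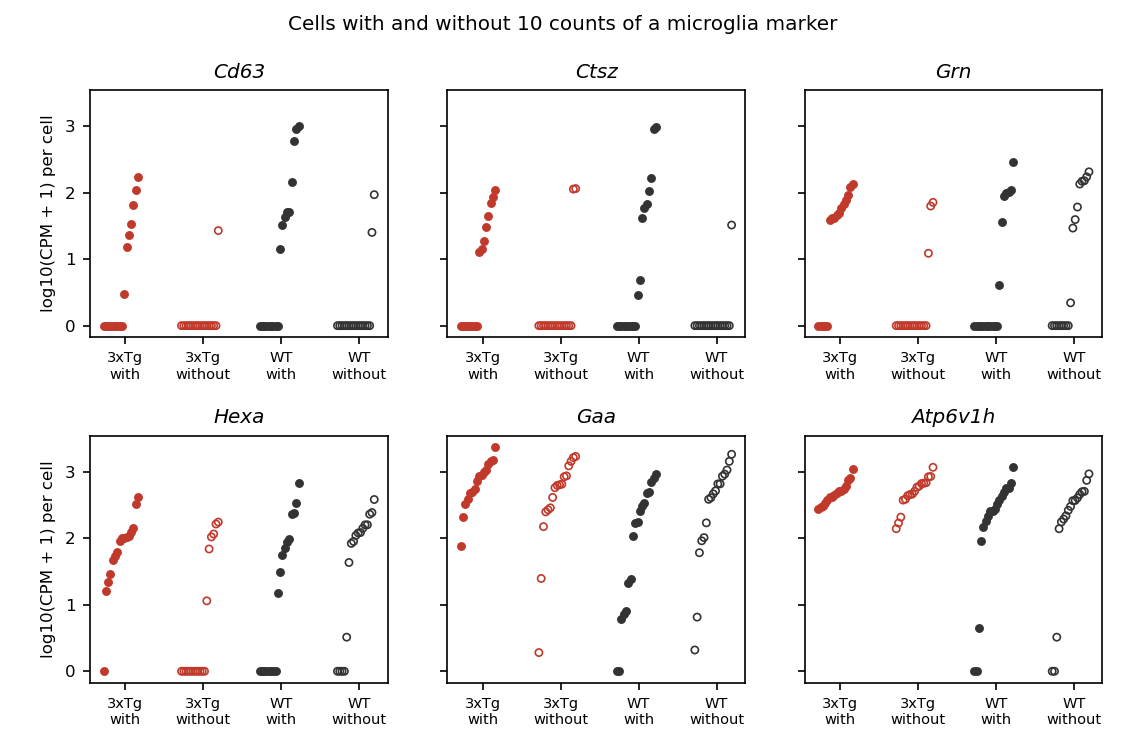
log10(CPM + 1) of 6 genes in each cell, split by genotype (red 3xTg, black WT) and by whether the cell held at least 10 counts of 1 of 7 microglia markers (filled) or not (open). Cd63 and Ctsz are at 0 in nearly all open cells, while Gaa and Atp6v1h are high in both kinds of cell.

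The remaining lysosomal genes had ratios within the limit or ratios that differed between the summaries. Tpp1, tripeptidyl peptidase, had a ratio of −0.80 by sums but a mean over cells of log2(normalized count + 1) that lay 0.42 above that of the median gene, and −0.15 without WT replicate 9, which held 38.3% of its WT counts. It was 0.30 in the second pair of runs and 0.034 without the cells holding microglia markers. Cln3, a membrane protein lost in Batten disease, had 450 and 522 counts in 16 and 13 cells, with medians of 0, highest cells of 159 and 213 CPM, and a ratio of −0.32. In the first pair of runs it was 4.48, on only 8 counts in WT 1 to 22 against 229 in 3xTg 24 to 55. The ratio was −1.24 in the second pair and 0.14 without the cells holding microglia markers. Single cells decided it as well, with −0.79 without 3xTg replicate 45 and 0.23 without WT replicate 69. Lipa, acid lipase, had 1684 and 1273 counts in 21 and 9 cells, with medians of 7.39 and 0, highest cells of 254 and 774 CPM, and a ratio of 0.29, which was −0.92 and 2.09 in the pairs. WT replicate 6 held 59.5% of the WT counts of Lipa, and without it the ratio was 1.55, while without the cells holding microglia markers it was 0.90. These 2 were the lysosomal genes past 1.5-fold in opposite directions in the pairs of runs, as were 13.7% of all genes with a mean of at least 10 counts. Lamp1 (0.01), Lamp2 (0.38), Mcoln1 (0.39), Ctsa (−0.11), Ctsf (0.33), Ctsl (−0.19) and Asah1 (−0.40) lay within the limit in summed CPM. By the mean over cells Lamp1 had 0.66, Mcoln1 0.68 and Ctsf 0.91, past the limit, as had Lipa with 1.39. In the pairs of runs Lamp2 had 0.99 and −0.52 and Asah1 −1.01 and 0.27, and without the cells holding microglia markers Mcoln1 had −0.39 and Ctsf −0.21. Without 3xTg replicate 24, which held 24.3% of the 3xTg counts of Lamp2, the ratio of that gene was 0.023. Tfeb itself was counted in 1 of 68 cells, with 1 count.

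**Figure D5:**
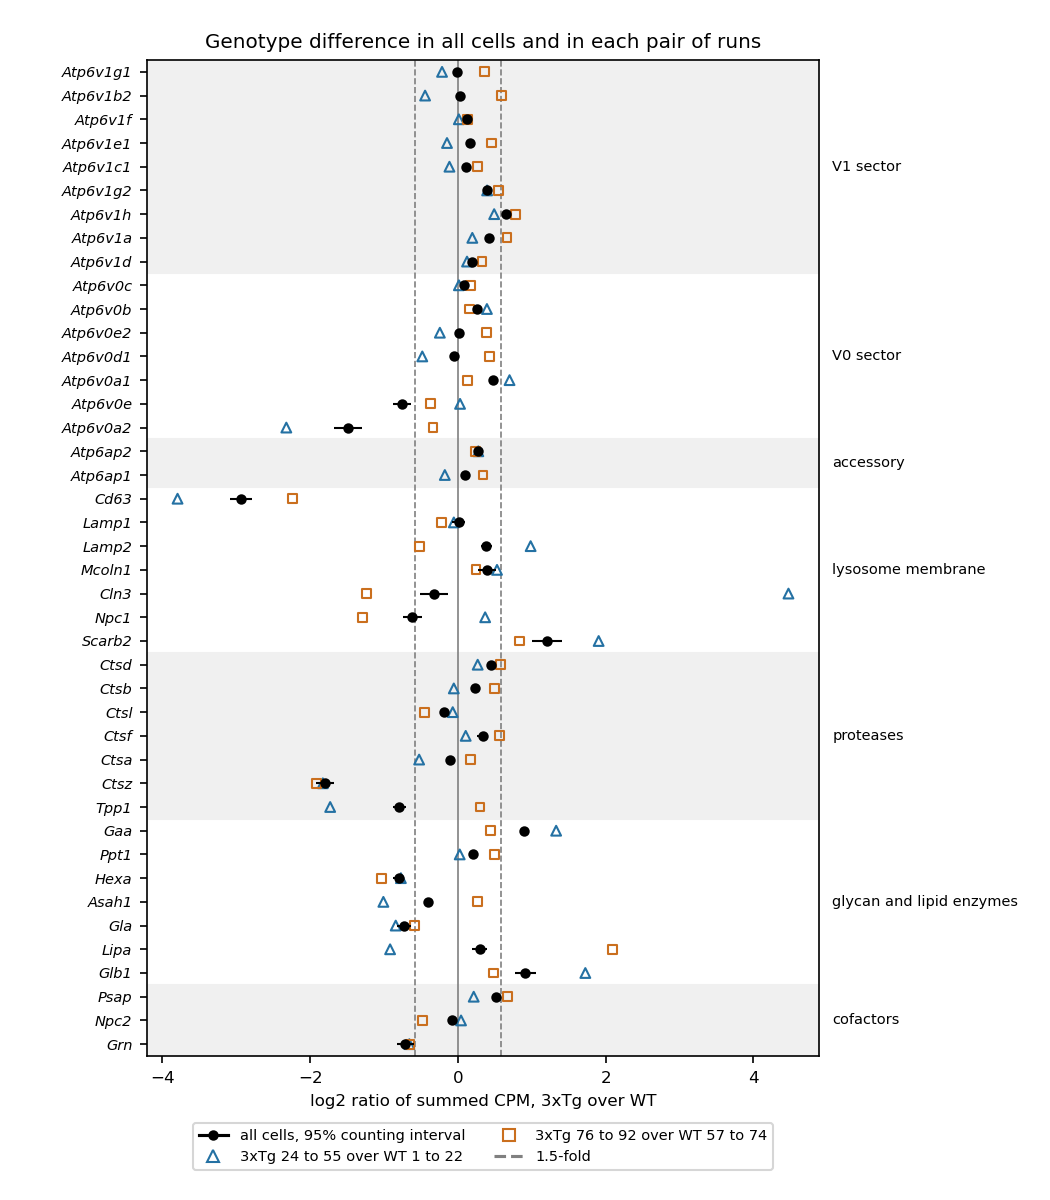
Log2 ratio of summed CPM, 3xTg over WT, for each gene with a mean of at least 10 counts, in all cells (black, with 95% counting intervals) and in the first (triangles) and second (squares) pair of runs; dashed lines mark 1.5-fold. V-ATPase genes lie within 1 of 0 save for Atp6v0a2, while lysosomal genes such as Cln3 and Lipa have run values on opposite sides.

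A wider list of lysosome genes, 66 found of 68 listed (further hydrolases, membrane and sorting proteins, V-ATPase assembly factors and lysosomal signalling), was examined in the same way. Of its 15 expressed genes, 8 passed in both genotypes and 7 through 3xTg alone, Tmem175 and Fnip1 among the latter. Of all 3988 expressed genes 2748 passed in both genotypes and 1076 through 3xTg alone. Of the 15, 1 was past 1.5-fold and higher and 1 was lower, where 9.88% and 13% of all expressed genes were, and the median log2 ratio was 0.08. Of its 52 genes with a mean of at least 10 counts 3 were higher and 12 lower, where 17.1% and 20.5% of all such genes were, and the median was −0.15. The higher was Tmem175, a lysosomal potassium and proton channel, with 0.68 (0.60 to 0.75), named after its value was seen, which was 0.21 in the first pair of runs, 0.49 without 3xTg replicate 78 and −0.15 without the cells holding microglia markers. The lower was Fnip1, a partner of folliculin in nutrient sensing by the Rag GTPases, with 1991 and 4511 counts and −1.29 (−1.37 to −1.21), which was −1.34 and −1.28 in the pairs of runs. Dmxl2, rabconnectin-3 alpha, which helps V1 and V0 to assemble on synaptic vesicles, had 1836 counts in 22 3xTg cells and 5040 in 26 WT cells, a ratio of −1.57 (−1.64 to −1.49), with −1.50 and −1.47 in the pairs, −1.77 without the cells holding microglia markers, and between −1.69 and −1.42 with any 1 cell left out. Arsb, a sulfatase, had 2489 and 691 counts and 1.74 (1.62 to 1.86), with 2.12 and 1.09 in the pairs. Fnip1, Dmxl2 and Arsb thus lay past 1.5-fold with the same sign in both pairs, as did 6 of the 52 genes of this list with a mean of at least 10 counts and 14.9% of all such genes.

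Other named genes of this list rested on few cells. Igf2r, a mannose 6-phosphate receptor that sorts hydrolases to lysosomes, had 421 counts in 20 3xTg cells and 155 in 7 WT cells, with a log2 ratio of 1.33. That ratio was 0.031 (−0.32 to 0.38) without the cells holding microglia markers, 0.68 without 3xTg replicate 49 and 2.14 without WT replicate 95. Cd68 (−2.60) and Ctss (−1.29), both genes of phagocytes, were counted in 15 and 25 cells, and 95.9% and 99.0% of their counts lay in the cells holding microglia markers. Without these cells their ratios were −0.33 and 0.55, within the limit, and with any 1 cell left out of all cells Cd68 ran from −3.26 to −2.02 and Ctss from −3.13 to −0.78. Ctsc (−3.47), Aga (−1.95), Galc (−1.75) and Nagpa (1.84) had between 32 and 329 counts in a genotype. All counts of Ctsc (100%) lay in 3 cells that held microglia markers. Single cells moved these ratios. Without 1 cell Aga ran from −2.82 (3xTg replicate 41) to −1.25 (WT replicate 18) and Galc to −2.67 (3xTg replicate 92). Nagpa ran from 1.16 (3xTg replicate 31) to 8.22 (WT replicate 74), the latter with 1 WT count left. In the first pair of runs the ratio of Ctsc was 1.83, and in the second pair that of Nagpa was −0.17.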

How the data were processed

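RNA of 68 single DA neurons was amplified and sequenced, and duplicate reads had been removed. The deposited estimated counts came from Strand NGS 4.0, in which reads at 90% identity or more to RefSeq transcripts (mm10) had been kept. Log2 values, which the authors had normalized with DESeq2, were deposited beside them and served as an alternative. Whether counting used strand is not given in the sources used here. Of the members, 11 overlap another gene, 10 of them on the other strand, and for 14 V-ATPase genes over 80% of the counts above 0 were not whole (tolerance 0.001), so that reads shared with other genes may enter them.

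Counts were rounded and summed over the cells of a genotype, and the log2 ratio is that of the sums in CPM, with an exact conditional binomial interval at 95%. Amplified reads without stated molecular identifiers are not independent molecules. Size factors followed DESeq2's median of ratios over 787 genes. Levels per kb used the length of the longest RefSeq-matched transcript of GENCODE M21. The 2 table rows of Atp6v0a2 include 1 that is 0 throughout and was left out. Thinning drew 700471 counts per cell. The calculation was tested on simulated data. Python 3.11.15 and edgeR 4.0.16 (TMM factors) were used.

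The members and lists were chosen with earlier results of these data known. Values per cell are given for members past 1.5-fold whose mean over cells goes the same way, the first and second gene of each V-ATPase subunit, the 5 lysosomal genes with the highest sums, Tfeb, and members past 1.5-fold in opposite directions in the runs. For genes with few counts, such as Atp6v1g3, Atp6v0d2 and Atp6v1c2, counts stand in place of values per cell. Of the wider list up to 10 genes and Tmem175 are named, without values per cell. A transgene of the 3xTg line is not reported here.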

Additional observations from a re-analysis of the deposited data

How the results depend on the processing

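No paired analysis was possible because the genotypes share no label number. A comparison without any cell holding a count of 8 microglia genes was not run, since 1 cell of each genotype would remain. The one with 10 counts of 7 of them was added after seeing the data.

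The median log2 ratio of V-ATPase genes (0.14) was 0.20 with TMM, 0.23 with size factors, 0.25, 0.20 and 0.32 by the mean over cells with pseudocounts of 1, 0.1 and 10, 0.013 and 0.35 in the first and second pair of runs, 0.25 by the authors' values, −0.032 without cells holding microglia markers, 0.10 with all genes counted, and 0.12 to 0.22 with any cell left out. With size factors the median of all expressed genes was 0.09. The lysosomal median (0.06) was 0.11 with TMM, 0.45, 0.53 and 0.27 by the mean over cells, 0.31 in the second pair, 0.41 by the authors' values, −0.28 without marker cells, −0.035 over genes with a mean of at least 10 counts and with all genes counted, and 0.013 to 0.13 with any cell left out. The wider list (0.08) gave 0.28 with size factors, 0.15 by the mean of CPM, 0.21 and 0.20 by the mean over cells with pseudocounts of 1 and 0.1, 0.0067 in the second pair, 0.28 by the authors' values, −0.15 without marker cells, −0.15 with the mean filter, −0.17 with all genes counted, and −0.013 to 0.20 with any cell left out. The cause of these shifts was not tested.

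Past a log2 ratio of 0.32 (in place of 0.58) 4 of 16 V-ATPase genes were higher and 0 lower (23.2% and 27.7% of all expressed genes were), and past 2-fold 0 and 0 (2.63% and 3.81%). By the mean over cells 3 were past 1.5-fold and higher (25.9%), with a pseudocount of 0.1 5 higher and 2 lower (32.2% and 28.5%), and in the second pair of runs 3 higher and 0 lower (13.7% and 30.1%). Of 10 lysosomal genes 3 were higher and 2 lower past 0.32, 0 and 0 past 2-fold, and 3 and 1 by the mean over cells (25.9% and 23.9%).

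For 31 genes every alternative was calculated. Of those past 1.5-fold signs turned for Atp6v0d2 with thinning (0.11), Atp6v0e with the mean over cells at a pseudocount of 0.1 (0.16) and in the first pair (0.029), Npc1 in the first pair (0.37), Ctsz, Ctss and Tmem175 without marker cells (2.99, 0.55 and −0.15), Ctsc in the first pair (1.83), and Nagpa in the second (−0.17). Of those within the limit they turned for Psap without marker cells (−0.25), Cln3 in the first pair (4.48) and without marker cells (0.14), Ctsb in the first pair (−0.055), and Lipa there (−0.92) and with size factors (−0.092). With any cell left out Ctsc ran from −3.53 to 2.04 and Cln3 from −0.79 to 0.23. Of the genes recalculated in the runs, without marker cells and without single cells alone, others turned as well, among them Tpp1, Lamp2, Asah1, Mcoln1, Ctsf and Atp6v0a1 as given above and Atp6v0a4 in the first pair (−0.36).

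In each of these summaries the leading gene of a subunit remained above 50%. The 3xTg share of Atp6v0a1 was 97.3% without length and 96.7% as a mean of cells (97.7% to 98.3% with any cell left out), and the WT share 91.1%, 82.8% and, thinned, 91.6% (92.4% to 95.1%). Atp6v0e2 gave 95.8%, 89.9% and 92.1% in 3xTg (90.8% to 92.1%) and 93%, 88% and 90.5% in WT (84.8% to 90.4%). Atp6v1g1 gave 60.5% and 64.3% in 3xTg (66.3% to 67.9%) and 66.9% and 71.6% in WT (72.5% to 74%).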
